A study of Mus musculus with 5 samples.

Results

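Integrins are the main receptors by which lymphocytes attach to matrix and to other cells, and 9 of their subunit genes were examined here in natural killer T (NKT) cells of the mouse thymus: Itga1, Itga2, Itga4, Itga6, Itgae, Itgal, Itgb1, Itgb2 and Itgb7. They were taken by symbol, as every non-control probe whose accession maps to one of them, which gave 12 of the 55681 probes on the array and 8 of the 20022 genes with a probe. Itga1, Itga4, Itgal and Itgb1 had 2 probes each, the other 4 genes had 1, and for Itgae no probe was matched, so it was not analysed here. NKT cells are T cells with a semi-invariant receptor for lipids presented by CD1d. They were sorted as CD3e-positive, CD1d-tetramer-binding cells from T-cell-enriched suspensions of 10 pooled thymi per sample, from wild-type C57BL/6 mice (3 arrays) or from IL15-/- mice (called IL15ko, 2 arrays), which lack interleukin-15 in the whole animal and not in NKT cells alone. The labels used here give neither an age nor a treatment of the mice, nor say that the samples of a group came from separate pools, so each p-value reflects how far these 5 samples differ among themselves, and that spread could be technical.

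An integrin is a heterodimer of 1 alpha and 1 beta chain, and neither chain reaches the cell surface efficiently alone. The alpha chain largely sets the ligand: α1β1 and α2β1 bind collagens, α6β1 binds laminins, α4β1 binds VCAM-1 and fibronectin, α4β7 binds MAdCAM-1 of gut vessels, αEβ7 binds E-cadherin of epithelia, and αLβ2 (LFA-1) binds the ICAM proteins. In lymphocytes these receptors are held in a low-affinity state until signals inside the cell activate them. An mRNA array measures neither the pairing nor the affinity.

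The share of probes well above background ran from 33.9% to 49.6% per array. IL15ko 2 was the dimmest, with a 75th-percentile signal of 440 against 885 to 1957 on the other 4 arrays. Wild-type 1 and 2 lay closest together: the robust SD of the log2 difference between them was 0.155, against 0.365 to 0.393 for the other pairs within a group. Levels below are log2 of the processed signal minus that array's 75th percentile, so that a level compares 1 probe between arrays and never 1 gene with another. The probe for Il15 was well above background on no array of either group and so does not check the genotype. The T-cell gene Cd3e was at similar levels on all arrays (4.18, 4.29 and 4.23 in wild-type; 4.10 and 4.26 in IL15ko). In IL15ko, the level of Xist was higher by at least 24.7-fold (limma adjusted p = 0.00559) and the Y-linked Eif2s3y was lower by 1.98 on the log2 scale (limma adjusted p = 0.00591). Eif2s3y and Ddx3y stayed well above background on both IL15ko arrays, so the IL15ko pools held Xist and Y-linked RNA together, whereas Xist was above background on no wild-type array. The share of each sex in the pools thus moved with genotype, and the 2 cannot be told apart in any comparison below.

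Across all 11997 genes tested with limma, 3.75% were higher and 3.58% lower in IL15ko at an adjusted p under 0.05, or 7.33% in either direction. Of the 8 integrin genes tested, 2 fell, 0 rose and 6 did not pass (3 lower and 0 higher at an unadjusted p under 0.05 in limma). Itga1 and Itgb1, the genes of the 2 chains of the collagen receptor α1β1, were the ones that fell. Itga2, Itga4, Itga6, Itgal, Itgb2 and Itgb7 did not pass. The groups did not overlap for 5 of the 8 (Itga1, Itgb1, Itga4, Itgal and Itgb7), and 47.2% of all tested genes had groups that did not overlap. The median log2 difference (IL15ko minus wild-type) was -0.22 over the 8 integrin genes and 0.01 over all genes tested. This -0.22 lies between the values of Itga4 (-0.45) and Itga6 (0.0046). It counts Itga2 among the lower genes, though Itga2 was above background on no IL15ko array, so it shows no shift of the whole family. With normexp background correction, or with no filter on dim probes, none of the genes named below kept a call; over all genes the calls were then 0 higher and 1 lower, or 0 higher and 3 lower, against 1960 and 2750 genes at an unadjusted p under 0.05 in limma. Itga2 entered the test only through wild-type arrays 2 and 3, where alone it was well above background. The other members were well above background on 4 arrays (Itga1) or on all 5 (the remaining 6).

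**Figure D1:**
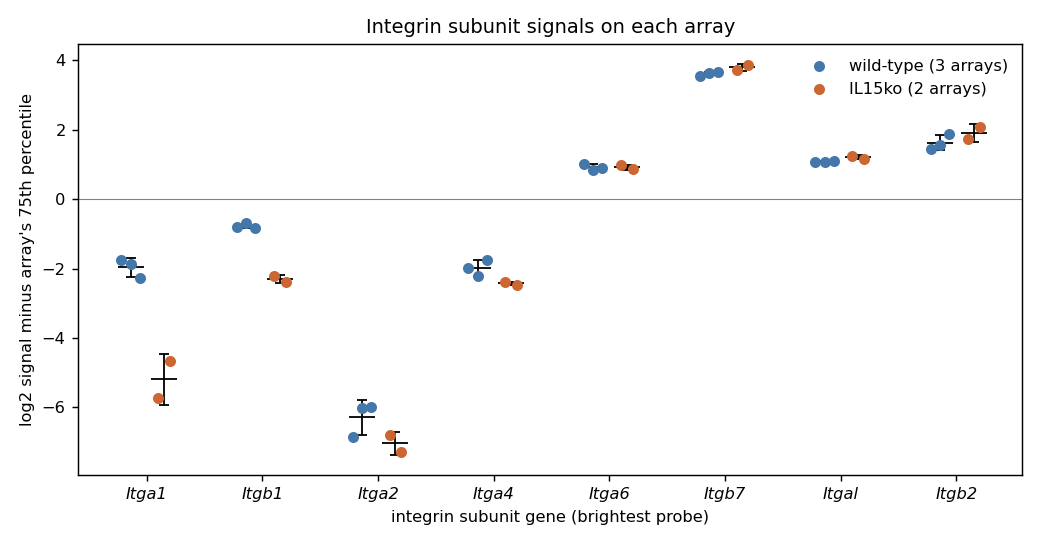
Level of each integrin gene on each array, as log2 signal minus the array's 75th percentile (vertical axis), for the probe of each gene with the highest mean level. Points are arrays, and bars are the mean and SD of 3 wild-type or 2 IL15ko arrays. Itga1 and Itgb1 lie well below wild-type in both IL15ko samples, while the points of Itga6 overlap.

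Itga1 encodes α1 (CD49a), a chain found on resident and activated T cells and on some innate lymphocytes. Its levels were -1.74, -1.88 and -2.27 in wild-type 1, 2 and 3 and -5.72 and -4.67 in IL15ko 1 and 2. All 3 wild-type values lay above both IL15ko values, with a gap larger than the range within either group. In unscaled signal this corresponded to 341, 241 and 405 against 25.6 and 17.3, and the probe was well above background on every wild-type array and on IL15ko 1 but not on IL15ko 2. Itga1 was 9.40-fold lower in IL15ko (95% confidence interval 5.06 to 17.5; log2 difference -3.23 ± 0.35 SE; limma adjusted p = 0.0159). Its other probe gave signals of 496, 375 and 661 in wild-type and of 5.24 and 14.4 in IL15ko, where it was not well above background on either array. That probe therefore gives only a bound, at least 21.0-fold lower in IL15ko (limma adjusted p = 0.0369 among named probes). A bound of this kind sets the bright group's mean against the lowest signal that counted as above background on each dim array. The adjusted p beside a bound, here and for Xist, Emilin1 and Parva, tests the measured signals, also those below background, and not the bound.

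Itgb1 encodes β1 (CD29), the shared partner of α1, α2, α4, α6 and several other alpha chains. Its levels were -0.79, -0.70 and -0.83 in wild-type and -2.22 and -2.38 in IL15ko. Both groups were tight, with ranges of 0.13 and 0.15, and they did not overlap. Unscaled signals were 659, 544 and 1098 against 290 and 84.8, all well above background. Itgb1 was 2.88-fold lower in IL15ko (95% confidence interval 2.29 to 3.61; log2 difference -1.52 ± 0.13 SE; limma adjusted p = 0.00881). The second Itgb1 probe read -2.18, -2.28 and -2.84 in wild-type and -3.37 and -4.58 in IL15ko. Its log2 difference was of the same size, -1.55, but its SE of 0.41 was larger and it did not pass (limma adjusted p = 0.0945 among named probes).

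**Figure D2:**
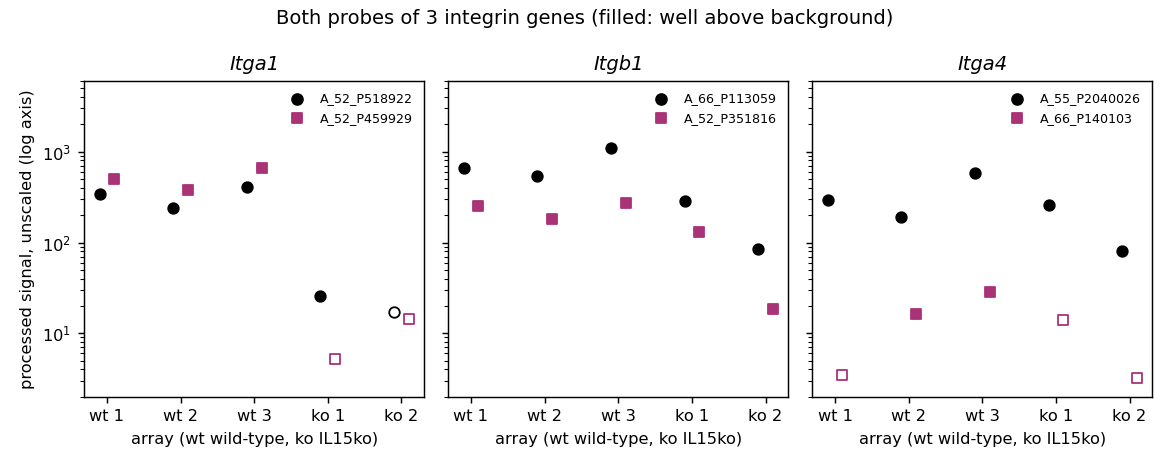
Unscaled processed signal (log axis) of both probes of Itga1, Itgb1 and Itga4 on the 3 wild-type (wt) and 2 IL15ko (ko) arrays, filled where the probe was well above background. Both Itga1 probes drop from 241 or more in wild-type to 25.6 or less in IL15ko, both Itgb1 probes stay above background on all arrays, and the second Itga4 probe is dim throughout. Signals are not scaled between arrays here, and IL15ko 2 was the dimmest array.

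Both calls were lost without wild-type 1 or wild-type 2. Without wild-type 1 the log2 differences were -3.12 for Itga1 (limma adjusted p = 0.0736) and -1.53 for Itgb1 (0.0655), and without wild-type 2 they were -3.19 (0.062) and -1.49 (0.0558), while without any other single array both passed. With normexp background correction at an offset of 50, above both IL15ko signals of Itga1, the log2 differences were -1.47 for Itga1 (limma adjusted p = 0.186) and -1.17 for Itgb1 (0.0743), and from the authors' deposited table that of Itga1 was -2.54 (0.0163).

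**Figure D3:**
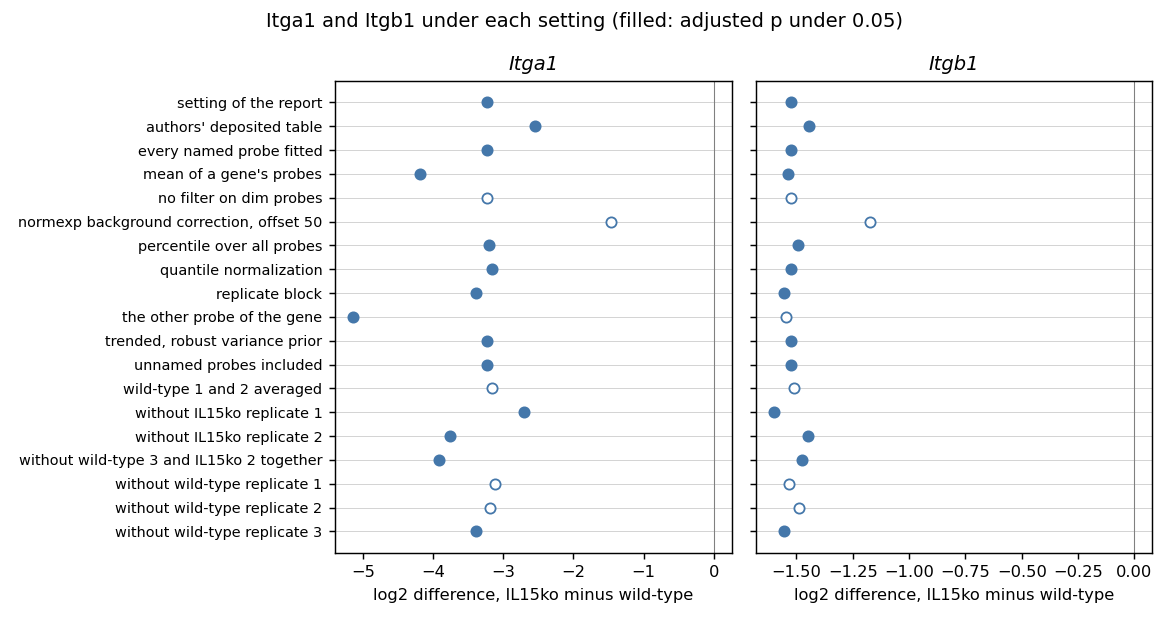
Log2 difference (horizontal axis, IL15ko minus wild-type) of Itga1 and Itgb1 under the setting of the report and each alternative, filled where the limma adjusted p was under 0.05. All values are below 0, from -5.14 to -1.47 for Itga1 and from -1.60 to -1.17 for Itgb1, and open circles show where the call was lost. The -5.14 is from the other Itga1 probe, which was above background on no IL15ko array, so its size is not a measured difference.

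The start regions of Itga1 and Itgb1, the genes that fell, and of Itga4, a β1 partner that did not pass, are shown for reference. They are RefSeq sequences of mouse assembly GRCm38.p6, 250 bases before to 50 bases after the gene start, read 5′ to 3′ on the gene's strand: Itga1 at chr13:115101915-115102214 (minus strand), Itgb1 at chr8:128685404-128685703 (plus strand) and Itga4 at chr2:79255176-79255475 (plus strand). Capitals mark matches, on either strand, to 5 motifs: STAT (TTCNNNGAA), T-box (GGTGTGA), RUNX (TGTGGT), E-box (CANNTG) and GC box (GGGCGG).
Itga1: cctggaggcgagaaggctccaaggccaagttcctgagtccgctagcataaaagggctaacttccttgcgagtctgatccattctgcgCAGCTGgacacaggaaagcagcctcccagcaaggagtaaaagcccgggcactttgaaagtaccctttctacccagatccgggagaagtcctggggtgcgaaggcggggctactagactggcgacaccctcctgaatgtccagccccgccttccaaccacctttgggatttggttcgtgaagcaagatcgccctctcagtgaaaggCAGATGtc
Itgb1: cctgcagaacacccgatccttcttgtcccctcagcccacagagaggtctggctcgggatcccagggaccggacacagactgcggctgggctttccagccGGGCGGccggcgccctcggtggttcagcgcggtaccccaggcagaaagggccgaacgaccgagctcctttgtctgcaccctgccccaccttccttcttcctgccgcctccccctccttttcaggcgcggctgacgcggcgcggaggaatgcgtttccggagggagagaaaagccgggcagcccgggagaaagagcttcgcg
Itga4: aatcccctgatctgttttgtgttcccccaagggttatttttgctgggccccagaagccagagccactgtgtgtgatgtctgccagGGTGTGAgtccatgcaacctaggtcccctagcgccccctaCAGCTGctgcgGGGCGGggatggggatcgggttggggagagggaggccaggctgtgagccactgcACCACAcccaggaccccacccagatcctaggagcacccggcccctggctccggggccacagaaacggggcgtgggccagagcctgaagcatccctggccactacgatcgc
The Itga1 region held 2 E-box matches, starting 163 bases before and 42 bases after the gene start. The Itgb1 region held 1 GC box match, 151 bases before the start. The Itga4 region held a T-box match 165, an E-box match 125, a GC box match 114 and a RUNX match 60 bases before the start, and none of these overlapped. Among 32851 promoter windows of the same length, 8.30% held a STAT match, 3.98% a T-box match, 16.76% a RUNX match, 72.31% an E-box match and 35.66% a GC box match. No STAT letters matched in the 3 windows, which says nothing about binding of the factor. Itgb1 had 27 CpG dinucleotides in its window, more than 84.5% of the windows, against 12 for Itga1 and 10 for Itga4, where the median window had 7.

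Itga2 encodes α2 (CD49b), the collagen-binding chain of NK cells and platelets. Its levels were -6.86, -6.01 and -5.99 in wild-type and -6.80 and -7.28 in IL15ko. These are levels at the edge of detection: the probe was well above background on wild-type 2 and 3 alone, and wild-type 1 lay below IL15ko 1. The log2 difference was -0.75 ± 0.33 SE, and it did not pass (limma adjusted p = 0.218). In the RefSeq gene order Itga2 lies directly beside Itga1.

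Itga4 encodes α4 (CD49d), which pairs with β1 or β7. Its levels were -1.97, -2.21 and -1.76 in wild-type and -2.39 and -2.46 in IL15ko. Both IL15ko values lay below every wild-type value, but the gap of the nearest pair was smaller than the wild-type range of 0.45. The log2 difference was -0.45 ± 0.17 SE, a 1.37-fold lower mean that did not pass (limma adjusted p = 0.173). The second Itga4 probe, above background on wild-type 2 and 3 alone, gave -0.12 ± 0.81 SE.

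Itga6 encodes α6 (CD49f), the laminin-binding partner of β1. Its levels were 1.03, 0.83 and 0.89 in wild-type and 0.97 and 0.87 in IL15ko. Both IL15ko values fell inside the wild-type range. The log2 difference of 0.0046 ± 0.13 SE had a 95% confidence interval of -0.33 to 0.34 (limma adjusted p = 0.986).

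The leukocyte integrin genes gave small positive differences that did not pass. Itgal encodes αL (CD11a), and its levels were 1.06, 1.07 and 1.11 in wild-type and 1.25 and 1.17 in IL15ko. These groups did not overlap, yet the log2 difference was only 0.13 ± 0.12 SE (95% confidence interval -0.17 to 0.43; limma adjusted p = 0.508), and the second Itgal probe gave 0.13 ± 0.16 SE with groups that overlapped. Itgb2 encodes β2 (CD18), the partner of αL, and its levels were 1.45, 1.56 and 1.88 in wild-type and 1.73 and 2.08 in IL15ko. The Itgb2 groups overlapped, with a log2 difference of 0.28 ± 0.20 SE (95% confidence interval -0.23 to 0.78; limma adjusted p = 0.412). Itgb7 encodes β7, the partner of α4 and αE in gut homing and epithelial retention, and its levels were 3.56, 3.65 and 3.65 in wild-type and 3.73 and 3.88 in IL15ko. Both IL15ko values of Itgb7 were above every wild-type value, by a log2 difference of 0.18 ± 0.13 SE (95% confidence interval -0.14 to 0.50; limma adjusted p = 0.400).

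**Figure D4:**
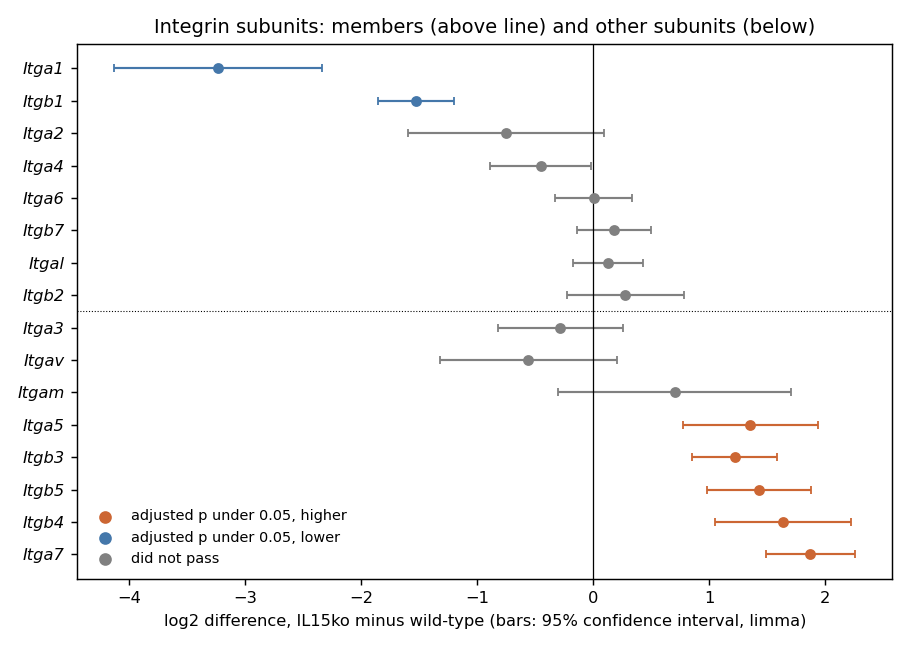
Log2 difference (IL15ko minus wild-type, horizontal axis) with its 95% confidence interval from limma, for the 8 integrin genes of the report (above the dotted line) and the 8 other integrin subunit genes tested (below it). The intervals of Itga1 and Itgb1 lie below 0, those of 5 other subunits lie above 0, and the interval of Itga4 ends just below 0 without passing the adjusted threshold.

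Whether the 2 chains of a receptor changed unequally was asked for 6 known pairs, by an exact permutation test (two-sided) of the alpha minus beta log2 difference within each array. With 3 arrays against 2 this exact test cannot go below p = 0.1, so no pair could pass, and the values are given as sizes. In α1β1 the alpha chain differed more than the beta chain, by -1.71 (exact p = 0.1, 0.2 after adjustment over the 6 pairs), with groups that did not overlap. Under normexp correction, which raises dim signals, the same value was -0.30 (adjusted exact p = 0.6).

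In α4β1 and α6β1 the difference of the alpha chain was closer to 0 than that of Itgb1. The change of alpha minus that of beta was 1.08 for α4β1 (exact p = 0.1, adjusted 0.2) and 1.53 for α6β1 (exact p = 0.1, adjusted 0.2). For α2β1 the value was 0.77 (exact p = 0.2, adjusted 0.24), but Itga2 was above background on no IL15ko array, so how far it differed could not be measured and the chains of α2β1 cannot be compared. These 4 values share Itgb1 and are not independent. For α4β7 the value was -0.63 (exact p = 0.2, adjusted 0.24) and the groups were apart, with Itga4 at -0.45 and Itgb7 at 0.18. For αLβ2 it was -0.15 (exact p = 0.6, adjusted 0.6) and the groups overlapped. The αEβ7 pair was not analysed here, because Itgae had no matched probe.

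For the 3 members with the largest differences among those above background on all arrays (Itgb1, Itga4 and Itgb2), the genes of most similar pattern over the 5 arrays were found among 9509 genes by the root mean square distance of centred levels. Nearest to Itgb1 were Ctla2b (distance 0.0471, log2 difference -1.57), Ctla2a (0.0785, -1.56) and Serpinb9 (0.0949, -1.47), all of them lower in IL15ko in limma. Ctla2a and Ctla2b encode near-identical inhibitors of cysteine proteases, so their probes may not be independent, and Serpinb9 encodes an inhibitor of granzyme B. Nearest to Itga4 were Tbc1d14 (0.0279), Selenof (0.0329) and Nipsnap3b (0.0341). Nearest to Itgb2 were Hcfc2 (0.0187), Adi1 (0.0426) and Rbsn (0.0435). None of the last 6 genes passed. The 5 arrays fall into 2 groups that differ in many genes, so similarity over them describes these arrays alone. The call of Ctla2a and of Ctla2b was lost without wild-type 1, and that of Serpinb9 was kept, with 1 array left out, only without wild-type 3.

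Genes directly beside the 9 members in the RefSeq order were read out as well, and named after their values were seen. Of 13 such genes tested that are no member, 1 was higher, 1 was lower and 11 did not pass. Pelo, a ribosome rescue factor whose gene overlaps that of Itga1, was at 1.01, 0.99 and 1.27 in wild-type and -0.21 and -0.43 in IL15ko. Its groups did not overlap, and it fell in the same direction as Itga1 (log2 difference -1.41; limma adjusted p = 0.0163; lost without wild-type 1, wild-type 2 or IL15ko 2). Because the strand and exons that the probes read were not checked, signals of overlapping genes may not be fully separate. Nrp1, a receptor beside Itgb1, moved in the opposite direction to it (log2 difference 2.24; limma adjusted p = 0.0286; kept, with 1 array left out, only without wild-type 3).

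Among the remaining integrin subunit genes the calls were all higher in IL15ko. Of 18 listed, 17 had a probe, 8 were below background on all arrays and 8 were tested, of which 5 rose, 0 fell (5 and 0 at an unadjusted p under 0.05) and 3 did not pass in limma, with a median log2 difference of 1.29. Itgav (-0.56 ± 0.30 SE), Itgam (0.70 ± 0.40 SE) and Itga3 (-0.28 ± 0.21 SE) did not pass. Itga7, a laminin-binding alpha chain, was at -5.46, -5.54 and -5.80 in wild-type and -3.72 and -3.73 in IL15ko. The groups were well apart and Itga7 was 3.67-fold higher in IL15ko (log2 difference 1.87 ± 0.15 SE; limma adjusted p = 0.00881).

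Like Itga7, the genes Itgb4, Itgb5 and Itga5 were dim, with unscaled wild-type signals of at most 85.3, and the known partners of these chains include β1 for α5 and α7, α6 for β4 and αv for β5. Itgb4 was 3.12-fold higher (limma adjusted p = 0.0228), Itgb5 2.69-fold (0.0185) and Itga5 2.56-fold (0.0340). Itgb3, a partner of αv and of the platelet chain αIIb, was brighter, at 0.69, 0.76 and 0.58 in wild-type and 2.02 and 1.77 in IL15ko. These groups did not overlap and Itgb3 was 2.33-fold higher (limma adjusted p = 0.0175), but its second probe gave 0.31 ± 0.37 SE (limma adjusted p = 0.624 among named probes) with groups that overlapped. Itga7 kept its call without each single array but wild-type 1 (limma adjusted p = 0.0603), and the other 4 kept theirs only without wild-type 3. The number of these subunits called was 0 without wild-type 1 and 1 without wild-type 2, IL15ko 1 or IL15ko 2.

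Among ligands, the E-cadherin gene Cdh1, the ligand of αEβ7, was lower in IL15ko. Its levels were -1.46, -1.53 and -1.23 in wild-type and -5.08 and -5.23 in IL15ko, where only IL15ko 1 was above background. The groups did not overlap and the difference was 13.4-fold (log2 difference -3.75 ± 0.15 SE; limma adjusted p = 0.00304). It was the single call among the 6 of 10 cell-surface ligand genes that were tested, with a median of -0.19. Icam1, the main ligand of αLβ2, gave -1.10 ± 0.43 SE and did not pass (limma adjusted p = 0.182). Of 14 matrix ligand genes 4 were tested, and Emilin1, a matrix glycoprotein bound by α4β1, was at least 4.96-fold higher in IL15ko (limma adjusted p = 0.0103; lost without wild-type 1 or IL15ko 2), where alone it was above background.

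None of the tested genes that switch integrins on from inside the cell passed in limma, 23 of 26 listed (0 higher and 3 lower at an unadjusted p under 0.05), and their differences ran from -0.52 to 0.37 with a median of -0.22. Tln1, the talin that opens the beta chain, was at -0.10 (limma adjusted p = 0.788) and Fermt3, the kindlin of blood cells, at 0.18 (0.707). The value of Tln1 depended on the probe: with its probes averaged it was at -0.73 and did not pass (limma adjusted p = 0.0742). The smallest adjusted p-values were those of the adaptor Fyb (-0.49, 0.0807), Dok1 (-0.44, 0.0876), which competes with talin, and the small GTPase Rap1b (-0.52, 0.0923). At the adhesion complex, 19 of 25 genes were tested and 1 rose: Actn1, an actin cross-linker that binds beta chains (log2 difference 1.28 ± 0.23 SE; limma adjusted p = 0.0397; kept, with 1 array left out, only without wild-type 3). The parvins Parvg (0.70, limma adjusted p = 0.0720) and Parva (at least 1.05-fold lower, 0.0754; above background on no IL15ko array) and the adaptor Zyx (-0.58, 0.0926) did not pass.

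Tetraspanins and other membrane partners of integrins gave 1 higher and 1 lower gene of 13 tested, with a median of 0.16. Cd81, a tetraspanin partner of α4β1, was higher by 1.14 ± 0.12 SE on the log2 scale (limma adjusted p = 0.0143; lost without wild-type 1, wild-type 2 or IL15ko 2). Cd63, another tetraspanin, was lower, at -1.07 ± 0.16 SE (limma adjusted p = 0.0273; lost on leaving out each of the 5 arrays in turn). Cd226, which associates with αLβ2, was at -1.36 and did not pass (limma adjusted p = 0.0679).

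The last list held TGF-beta pathway genes and transcription factors tied to integrin genes, 15 of 17 tested, of which 2 fell and 0 rose in limma (8 and 2 at an unadjusted p under 0.05), with a median of -0.41. Tbx21, the T-bet gene, was at 2.69, 2.64 and 2.61 in wild-type and 0.73 and 1.04 in IL15ko. These groups lay far apart, and Tbx21 was 3.40-fold lower (log2 difference -1.77 ± 0.15 SE; limma adjusted p = 0.00881; lost without wild-type 1). Smad7, an inhibitor of TGF-beta signalling, was lower by -1.13 ± 0.20 SE (limma adjusted p = 0.0353; lost on leaving out each of the 5 arrays in turn). Runx3 (-0.80, limma adjusted p = 0.0546), Klf2 (-0.62, 0.0661), Runx1 (0.83, 0.0684) and the ligand gene Tgfb1 (0.86, 0.0688) did not pass.

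**Figure D5:**
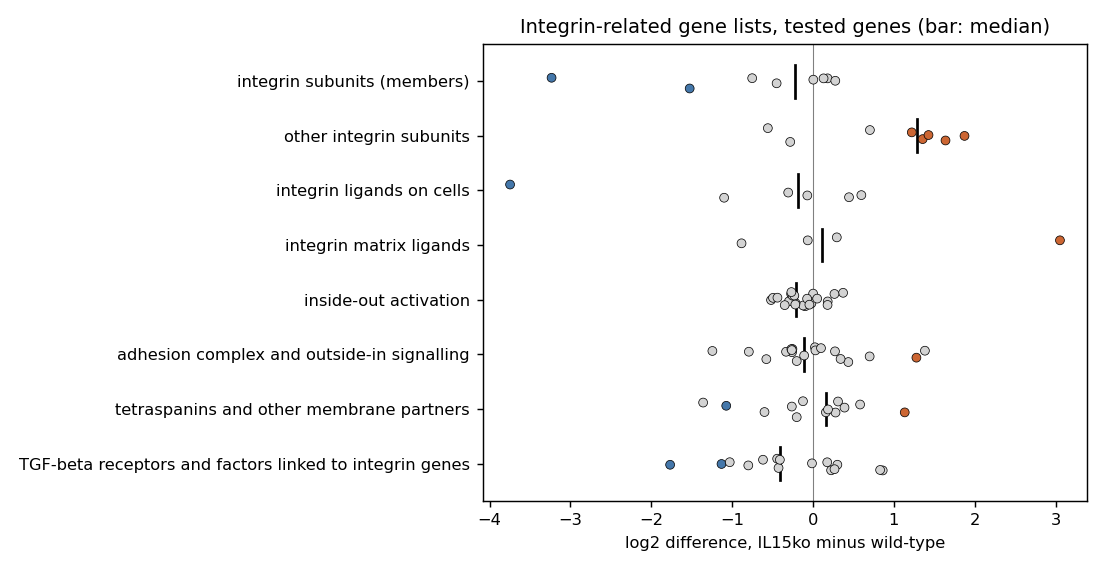
Log2 difference (IL15ko minus wild-type, horizontal axis) of every tested gene in each integrin-related list, with the median as a bar; orange points were higher and blue points lower at a limma adjusted p under 0.05, and grey points did not pass. The members' calls lie below 0 (Itga1 and Itgb1), those of the other subunits above 0, and inside-out activation holds no call.

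Markers of other cells were measured on the same arrays. In bulk samples fewer cells of a type and less RNA per cell cannot be told apart. The summed scaled signal of 9 NK and innate lymphoid cell genes was 14.6 to 15.9 in wild-type and 2.79 to 3.67 in IL15ko. The sum moved in the same direction as Itga1 and Itgb1, and these cells also carry α1 and α2. Most of the sum was Klra8, with unscaled signals of 12504, 9382 and 23010 in wild-type and 2215 and 1049 in IL15ko. The unscaled sums of the list were 12921 to 31185 and 1614 to 3767. Of these 9 genes 4 were tested and 3 fell (Klra8, Klra4 and Klre1), while Ncr1, Khdc1a and Kit were above background on no array and Eomes and Fcgr3 on 1 wild-type array each. Klra and Klre1 receptors are also carried by NKT cells, and the part of this difference in that of Itga1 and Itgb1 was not tested.

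The summed platelet markers were 1.53 to 1.75 in wild-type and 3.49 to 4.11 in IL15ko, but this list contains Itgb3 itself, and 4 of its 7 genes (Itga2b, Pf4, Ppbp and Gp9) were below background on every array. The myeloid sum was 4.12 to 5.95 in wild-type and 4.58 to 10.6 in IL15ko. It contains Itgam, which made up most of it, and Lyz2, Adgre1 and Itgax were below background on every array. The 10.6 is that of IL15ko 2, where the Itgam probe used read 3.39, or 4616 unscaled. The other Itgam probes read 16.9 and 7.22 unscaled on that array and were not above background there. Csf1r, above background on all 5 arrays, was at -2.29 and did not pass (limma adjusted p = 0.0509), and the median over the 3 myeloid genes tested was -1.03. Of 8 immature thymocyte genes, Rag1, Rag2, Ptcra, Cd8a and Cd8b1 were below background on every array, while Dntt and Cd4 were above it on all 5. The sum of this list was 1.30 to 1.85 in wild-type and 2.51 to 3.08 in IL15ko. Most of it was Cd4, which many NKT cells also carry. Unscaled, the list summed to 1639 to 2553 in wild-type and 1356 to 3394 in IL15ko. Cd4 alone read 1677, 1498 and 2469 in wild-type, and 3307 and 1281 in IL15ko. The log2 difference of Cd4 was 0.87 and did not pass (limma adjusted p = 0.0530). The part of these differences in those of the integrin genes was not tested. The summed T and NKT cell genes were 109 to 112 in wild-type and 109 to 117 in IL15ko. All 8 of these were tested and 2 rose: Zbtb16, the PLZF transcription factor of NKT cells, was 2.83-fold higher in IL15ko (limma adjusted p = 0.0161; lost without wild-type 1, wild-type 2 or IL15ko 2) and Cd5, a T-cell surface receptor, 1.58-fold higher (limma adjusted p = 0.0398; lost on leaving out each of the 5 arrays in turn).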

How the data were processed

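Wild-type (3) and IL15ko (2) thymic NKT cell samples were each hybridised to a 1-colour Agilent array. The deposited files are scanner output of Agilent Feature Extraction 10.7.1.1 per the file headers, with linear intensities per spot and a processed signal that is background-subtracted within each array. The authors' deposited value table, also intensities, is on a linear scale and ranked spots as the median signal minus background does; its column medians (25.2, 22.6, 26.0, 24.4 and 15.7) show no scaling between arrays, and its centring is unknown. The submitters' processing notes also name limma.

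From these files, the processed signal was put on a log2 scale and centred by subtracting its 75th percentile on that array, over 18519 probes well above background on all 5 arrays. Control and outlier spots were left out, and spots of a probe averaged. Accessions, matched without versions to the RefSeq annotation of GRCm38.p6, named 26425 of 55681 probes with 1 symbol, 0 with several and 29256 with none; the array design was made on mm9, so no gene coordinates of the other build are given apart from those of the printed sequences. Promoter entries matched 5 of the 9 members. A gene was represented by the probe with the highest mean level, of 20022 genes with a probe, and limma 3.58.1 (lmFit, eBayes; R 4.3.3; no covariates) was run on the 11997 genes detected above background on 2 or more arrays (3 residual and 2.28 prior degrees of freedom), with Benjamini-Hochberg adjustment over all and a threshold of 0.05. Errors are moderated standard errors. The number of arrays limits the precision. No probe was saturated. The fit was also run on simulated data, with independent noise of the same size on every array. Those data held no dim array and no closer pair of arrays, so they do not test the calls made here.

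Wild-type 1 and 2 differed 1.62 times as much as repeated spots within an array (187 probes). Repeated spots share 1 array, so this ratio cannot tell 2 samples from 1 sample put on 2 arrays. The 2 were kept as separate samples, with their average as an alternative. With that average, Itga1 (limma adjusted p = 0.0601) and Itgb1 (limma adjusted p = 0.0548) did not pass. All 5 arrays lay on 1 slide and 1 scan, so neither could be a batch term. The members and lists were chosen with earlier results of these data known. All members are named; of each list up to 4 genes by smallest p, those needed for small counts, and the nearest 3 genes in pattern to 3 members; neighbouring genes, marker genes, Tln1, Fermt3, Runx1 and Tgfb1 were added after their values were seen. Alternatives covered background correction, scaling, filter, probe rule, variance prior, replicate block, the deposited table and each sample left out.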

Additional observations from a re-analysis of the deposited data

How the results depend on the processing

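The direction of Itga1 and Itgb1 was the same in all 18 and 19 alternatives run, and each call held in 13 of them. For Itga1 these 13 include the other probe, which was above background on no IL15ko array. Alternatives that changed only the variance prior or the features adjusted over left the estimates as they were (Itga1 -3.23, Itgb1 -1.52). In those the direction could not differ. The number of integrin members called lower (2) was 1 with only genes above background on all 5 arrays (Itga1 was then filtered out), 0 without a filter, with normexp correction or with wild-type 1 and 2 averaged, and 0 to 2 with each array left out; no member was higher in any of these fits. Over all genes, the numbers called higher and lower (450 and 429) were 710 (higher) with that filter, 0 and 3 without a filter, 0 and 1 with normexp, 821 and 696 with a trended, robust variance prior, 34 and 67 with the 2 arrays averaged, 672 (lower) without wild-type 3 and IL15ko 2 together (added after seeing the data), and 1 to 373 and 8 to 410 with each array left out. At an unadjusted p under 0.05, limma gave 2750 genes without a filter and 1960 with normexp, against 3299. The median of all tested genes was 0.24 without a filter and 0.22 with normexp, against 0.01. Other subunits called higher (5) were 1 with the replicate block or with the 2 arrays averaged, and 0 to 5 with each array left out.

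The replicate numbers were not shown to pair the samples, and 2 pairs cannot settle it: deviations correlated at -0.14 for number 1 and 0.32 for number 2, over 9759 genes. With the replicate block 138 genes were higher and 241 lower, and Itga1 (-3.39) and Itgb1 (-1.55) passed. Differences that turned sign with normexp were those of Cd63 (0.066), Itga2 (0.34), Itga3 (0.40), Itga6 (-0.021), Itgav (0.16) and Parva (0.32); with the authors' deposited table Itga3 (0.014) and Itga6 (-0.0057); with the block Itga6 (-0.0082) and Tln1 (0.056); with probes averaged Parva (0.12); without wild-type 3 and IL15ko 2 together Itgam (-0.011) and Tln1 (0.21). With each array left out, Itga6 ran from -0.048 to 0.059 and Tln1 from -0.25 to 0.060. Calls were also lost with the authors' deposited table (Itga5, Cd63, Emilin1), quantile normalization (Actn1, Cd63, Smad7) and unnamed probes included (Actn1, Cd5, Cd63, Itga5, Nrp1, Smad7). The cause was not tested. The normexp correction used the spot median signal, since the files used here have no spot mean, and a slide block could not be fitted. Members at the edge of the background, Itga2 and Itga1 in IL15ko, are the least precise.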
